A study of Mus musculus with 2 samples.

Results

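Histone genes were taken from the gene table by symbol, as those of the linker histone H1, of the core histones H2A, H2B, H3 and H4, and of their variants. The symbol rule found 110 genes, of which 66 belong to the histone gene clusters, 36 are variants and 8 are pseudogenes. By RefSeq accession, 71 of them had a probe on the array, out of 20144 genes with a named probe. The probed genes were 48 cluster genes and 23 variants, and none of the pseudogenes. The variants macroH2A and CENP-A carry other symbols and are outside the rule.

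RNA came from Mus musculus cells that the labels call P3 primary keratinocytes. Keratinocytes form the epithelium of the skin. A sample labelled Rac1/Rac3-DKO, lacking the small GTPases Rac1 and Rac3, was set against a control sample labelled Rac3-KO, so that both samples carry the Rac3 deletion. The labels do not say whether P3 is an age or a passage, and they name no strain or method of Rac1 removal. Each genotype had 1 array, on the same slide and in the same scan, so no difference below has a replicate check and no test was possible. Levels are log2 processed signals minus the 75th percentile of the array, which was a signal of 354 on the DKO array and 705 on the Rac3-KO array. Differences are log2, DKO minus Rac3-KO. The signal error is the scanner software's own error of a log2 difference and covers measurement within the array only.

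Cells copying their DNA need new histones in bulk, and the cluster genes supply them. They are small, intronless and expressed in S phase, and their mRNA ends in a conserved stem-loop, bound by the protein Slbp, in place of a poly(A) tail. Variant genes such as those of H2A.Z are made throughout the cell cycle as polyadenylated mRNA, and their proteins replace the cluster histones in chromatin. Cluster genes also give some polyadenylated mRNA, in differentiated cells in particular. Labelling kits of the kind named in the labels usually prime on the poly(A) tail, so that a cluster gene's signal need not follow its whole mRNA pool. The cluster genes are near-identical copies, and the deposited files hold no probe sequences, so a probe may read several copies and each cluster gene value is uncertain in that respect.

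Most measured histone genes were lower on the DKO array, by less than 2-fold in the main. Of the 71 probed genes, 56 were well above background on both arrays (78.9%, against 70.2% of all genes with a probe). The difference lay below 0 for 46 of these 56, or 82.1%, whereas 50.6% of the 14144 genes measured on both arrays lay below 0. The median histone difference was -0.29, and that of all measured genes -0.01. With the 2-fold threshold, 7 histone genes (12.5%) were lower, against a background of 6.62%, and 1 (1.79%) was higher, against a background of 7.71%. A difference beyond 1.96 signal errors was found downwards for 26 histone genes (46.4%), where the background was 24.3%, and upwards for 4, where the background was 24.2%.

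At a mean level above 4, all 20 histone genes lay below 0 with a median of -0.24, where the 1533 genes measured at that level had a median of 0.10. Of these 20, 1 was at least 2-fold lower, against 2.87% of all genes at that level. Between 0 and 4 the median of 18 histone genes was -0.41, against -0.05 for all genes, and 4 of them, H2bu2 among these, were at least 2-fold lower, against 5.4% of all. At or below 0 the median of 18 was -0.44, against 0.03 for all genes. Of these 18, 10 lay below 0 and 2 were at least 2-fold lower, against 9.45% of all at that level. Both counts are near the background, as 50.6% of measured genes of any level lay below 0.

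Cluster genes and variants differed in how many were detected more than in how they shifted. Among cluster genes 46 of 48 were well above background on both arrays, and among variants 10 of 23. The variants not measured on both arrays were all germline genes, and outside the germline set all 9 probed variants were measured. The difference in detection between the classes thus lay in the germline genes. The median difference was -0.25 for the 46 cluster genes and -0.39 for the 10 variants. At least 2-fold lower were 5 cluster genes, namely H2bu2, H2bc8, H4c17, H3c8 and H2aw, and 2 variants, H1f0 and H3f3b. The single gene at least 2-fold higher was the cluster gene H3c15. The cluster and variant ranges overlapped over most of their length, from -2.02 to 1.21 and from -1.36 to 0.62.

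**Figure D1:**
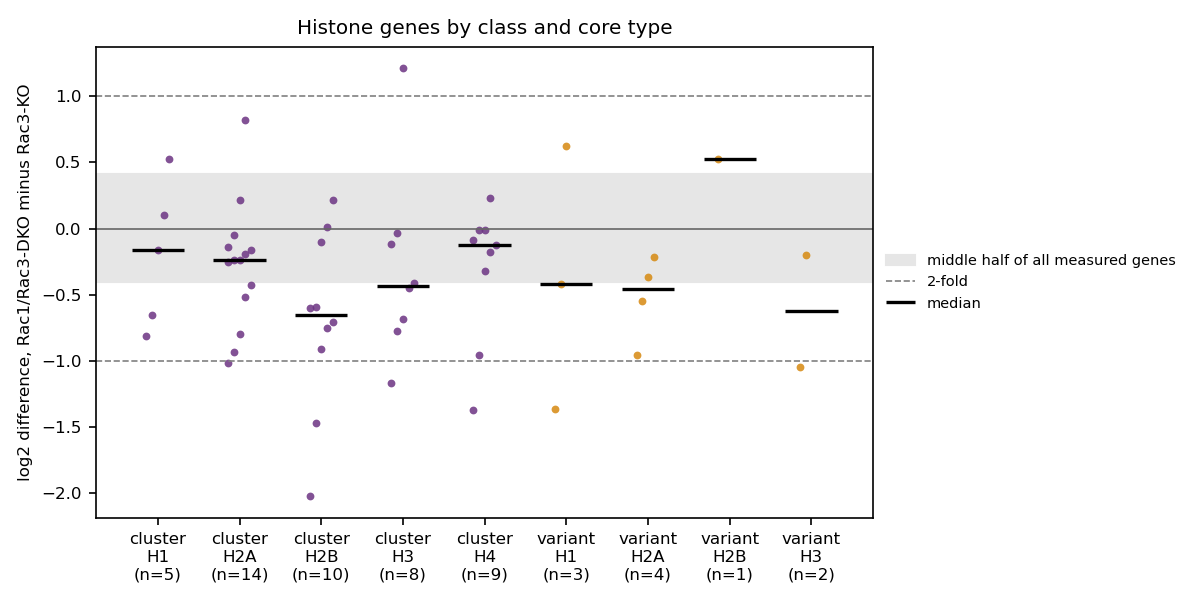
Log2 difference (DKO minus Rac3-KO, vertical axis) of each histone gene well above background on both arrays, grouped by class and core type. Each point is 1 gene, black bars are medians, the grey band holds the range between the quartiles of all 14144 measured genes and dashed lines mark 2-fold; most points lie below 0, and only H3c15 lies above the upper dashed line.

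The H3 variant genes were lower by unequal amounts. H3f3a and H3f3b encode the same replacement histone, which is laid into active genes outside S phase. H3f3b had a level of 5.59 on the DKO array and 6.64 on the Rac3-KO array, a 2.06-fold lower value (difference -1.05, signal error 0.20). Its other 2 probes also lay below 0, at -0.95 and -1.53. H3f3a had levels of 5.88 and 6.08 on the DKO and Rac3-KO arrays, a difference of -0.20 that is within 1.96 signal errors, and its second probe gave -0.57. All 5 probes for this protein were thus lower on the DKO array, those of H3f3b by more than those of H3f3a.

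All 4 measured H2A variants lay below 0, and none by 2-fold. Below 0 lay 82.1% of all measured histone genes and 50.6% of all genes, so this count is no result particular to them. H2ax encodes the variant that is phosphorylated at DNA breaks, and its mRNA exists in a stem-loop and a polyadenylated form. Its level was 3.45 on the DKO array and 4.40 on the Rac3-KO array (difference -0.95, signal error 0.20), just short of the 2-fold threshold. The H2A.Z genes H2az1 and H2az2, whose protein marks promoters, had levels of 6.65 and 5.29 on the DKO array, against 7.01 and 5.84 on the Rac3-KO array. Their differences were -0.37 and -0.55, and their additional probes gave -0.34 and -0.83. Both H2az1 probes were within 1.96 signal errors and both H2az2 probes beyond them. H2aj, the gene of the variant H2A.J, had 7.93 on the DKO array and 8.14 on the Rac3-KO array at its brighter probe. That difference of -0.22 was within 1.96 signal errors. Its second probe was far dimmer, with levels of 0.59 on the DKO array and 1.15 on the Rac3-KO array. It gave -0.56, beyond 1.96 signal errors. The brighter probe's level is near those of the bright cluster H2A genes, and whether it also reads them was not tested.

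The linker histone variants went in both directions. H1f0 encodes the linker histone known to build up in cells that have stopped dividing. It had a processed signal of 290.0 on the DKO array and 1483 on the Rac3-KO array. After scaling these were levels of -0.29 and 1.07, or 2.57-fold lower on the DKO array, the largest difference among the variants. H1f10, an H1 variant of somatic cells, had levels of 0.07 and 0.48 on the DKO and Rac3-KO arrays (difference -0.42). H1f8, the linker histone of oocytes, was dim on both, with signals of 101 on the DKO array and 131 on the Rac3-KO array, and its scaled difference was 0.62 (signal error 0.22). H2bfm, a dim H2B family gene on the X chromosome, had signals of 50.7 and 70.1 on the DKO and Rac3-KO arrays and a difference of 0.53 (signal error 0.27), within 1.96 signal errors.

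**Figure D2:**
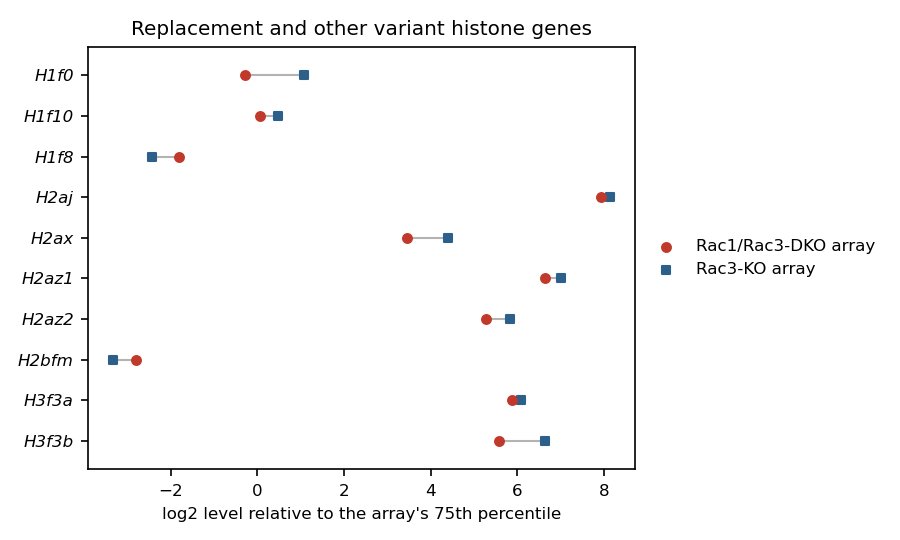
Levels of the 10 variant histone genes well above background on both arrays (horizontal axis, log2 relative to the 75th percentile of each array), DKO as red circles and Rac3-KO as blue squares. H1f0, H3f3b and H2ax show the widest gaps, all lower on the DKO array, and H1f8 and H2bfm, at the dim end, have DKO points to the right, that of H2bfm within 1.96 signal errors.

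Genes of germ cell histones gave few signals. Of 14 probed germline variants, 12 were not well above background on either array, including all 9 probed H2A.L genes, which serve the packing of sperm chromatin. H2ap gave 9.23 on the DKO array, not well above background, and 34.2 on the Rac3-KO array, too dim for a fold to be given. The testis-type cluster genes were measured: H1f6 differed by 0.52, H2bc1 by -0.59 and H2ac1 by -0.80. H2bc1, known as a testis H2B gene, had signals of 3022 on the DKO array and 9068 on the Rac3-KO array. Whether its probe also reads other H2B copies was not tested.

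Among the cluster genes of linker histones, those encoding the common somatic H1 proteins were split. H1f4 and H1f2 had levels of 4.46 and 4.05 on the DKO array and of 4.62 and 3.94 on the Rac3-KO array, differences of -0.16 and 0.10 within 1.96 signal errors. H1f5 had 3.34 on the DKO array and 3.99 on the Rac3-KO array, a difference of -0.65, and H1f1 differed by -0.81. These 2 genes thus lay lower on the DKO array, each by less than 2-fold. H1f3 was not well above background on either array.

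The H2A cluster genes had a median difference of -0.24, and the strongly signalling ones lay close to 0. For 7 of the 14 measured genes the signal exceeded 100000 on the Rac3-KO array, and these 7 differences lay between -0.26 and -0.05, all within 1.96 signal errors. H2ac12 had 113591 on the DKO array and 269717 on the Rac3-KO array, which after scaling is a difference of -0.26. H2ac10 and H2ac11 gave -0.19 and -0.14. No spot was saturated on either array. A second probe of H2ac15, a gene of this set, gave -0.74 where the first gave -0.05. Normalization by quantiles moved H2ac12, H2ac10 and H2ac11 to -0.55, -0.45 and -0.38, still under 2-fold. H2ac12 and H2ac10 were then beyond 1.96 signal errors. So were H2ac12 with loess, at -0.42, and H2ac11 with normexp, at -0.41.

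H2B genes had the lowest median of the cluster core types, -0.66 over 10 measured genes, and 7 of them were lower by more than 1.96 signal errors, against 24.3% of all genes. The bright genes H2bc4, H2bc14 and H2bc1 had levels of 4.18, 3.71 and 3.09 on the DKO array and of 4.89, 4.32 and 3.69 on the Rac3-KO array. Their differences were -0.71, -0.60 and -0.59. H2bc8 had a signal of 70.1 on the DKO array and 386 on the Rac3-KO array, 2.77-fold lower after scaling. With normexp background correction its difference was -0.81 in place of -1.47, below the 2-fold threshold. H2bc23 gave 18.3 on the DKO array, not well above background, and 165 on the Rac3-KO array. It was therefore at least 4.13-fold lower in DKO, a bound set by the lowest DKO signal well above background.

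H3 and H4 cluster genes were mostly lower, with single exceptions. Of 8 measured H3 genes 7 lay below 0, with a median of -0.43. H3c4 had levels of 5.64 on the DKO array and 6.32 on the Rac3-KO array (difference -0.69), and H3c3 had 2.01 and 2.42 (difference -0.41). H3c8 was 2.25-fold lower on the DKO array, with a signal of 216 there and 966 on the Rac3-KO array. Of 9 measured H4 genes, 8 lay below 0 with a median of -0.13, and 7 of the 9 were within 1.96 signal errors. For H3 and H4 alike, the share below 0 was near the 82.1% of all measured histone genes, where all genes had 50.6%. H4c12, H4c14 and H4c4 had levels of 6.31, 6.28 and 5.52 on the DKO array, against 6.63, 6.37 and 5.64 on the Rac3-KO array. Their differences were -0.32, -0.08 and -0.13. H4c12 also had a dimmer probe, with levels of 3.61 on the DKO array and 3.65 on the Rac3-KO array, which gave -0.03. A second probe of H4c14 gave -0.83 but was dim, with signals of 29.5 on the DKO array and 104 on the Rac3-KO array. H4c17 was 2.58-fold lower on the DKO array. The 2 probes of H4c9 disagreed, at -0.95 and 0.87. The counts take its brighter probe, at -0.95, and so include it among the genes below 0, but its direction depends on the probe. It was the single 1 of 9 histone genes with several measured probes whose probes fell on both sides of 0.

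**Figure D3:**
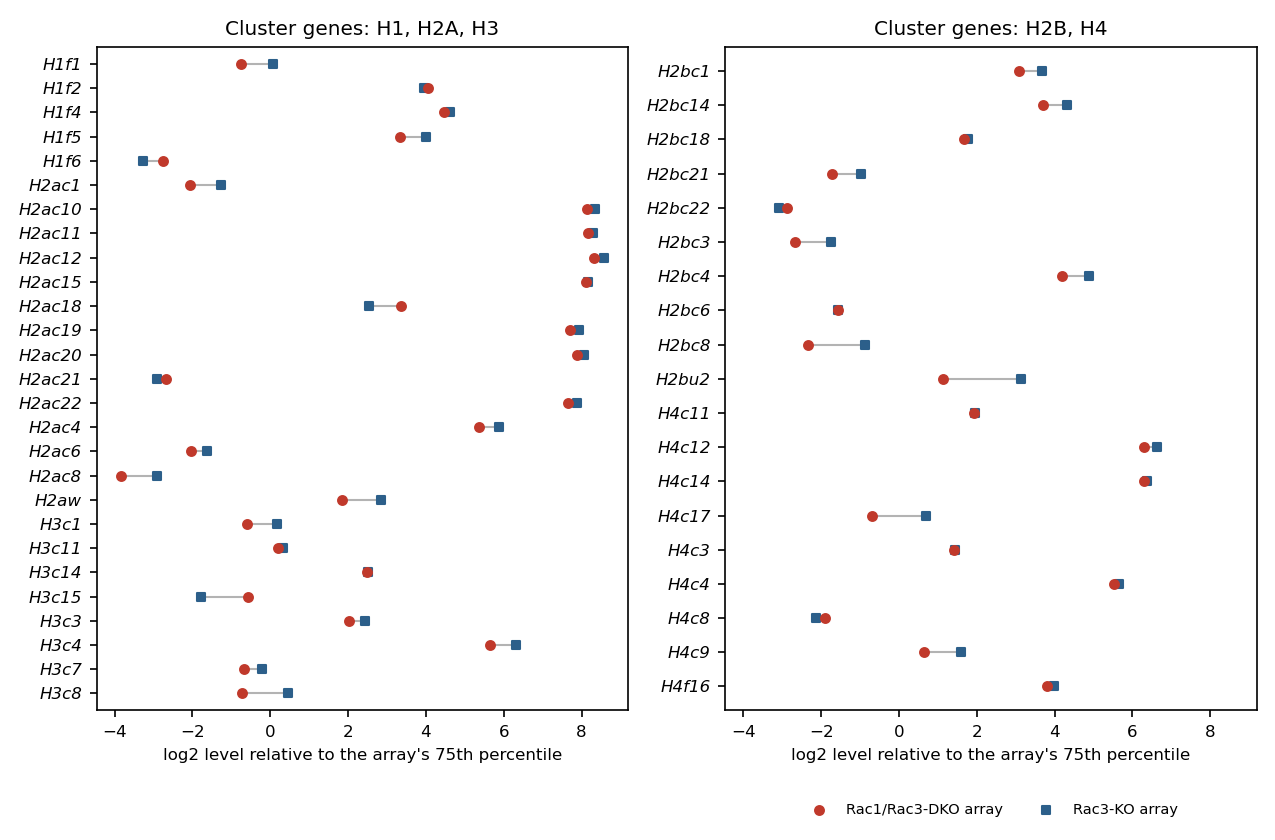
Levels of the 46 cluster histone genes well above background on both arrays (horizontal axis, log2 relative to the 75th percentile of each array), DKO as red circles and Rac3-KO as blue squares joined by a line for each gene. The H2A genes at the top of the scale have nearly coinciding points, while H2bu2, H2bc8 and H4c17 show long gaps towards lower DKO levels and H3c15 and H2ac18 towards higher ones.

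The measured cluster genes lie on 4 chromosomes, and differences between loci were not tested. The large locus on chromosome 13 had a median of -0.42 over 34 measured genes, of which 3 were at least 2-fold lower and none at least 2-fold higher. Those 3 are 8.82% of the locus, near the 6.62% of all genes. The locus on chromosome 3 had a median of -0.08 over 9 genes, and the pair on chromosome 11 lay at -2.02 and -1.01. H4f16 on chromosome 6 differed by -0.17. The order of chromosomes 11, 13 and 3 was the same under each background correction and scaling tried, with chromosome 3 medians between -0.18 and -0.08. Genes of a locus share sequence and are not independent of one another.

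**Figure D4:**
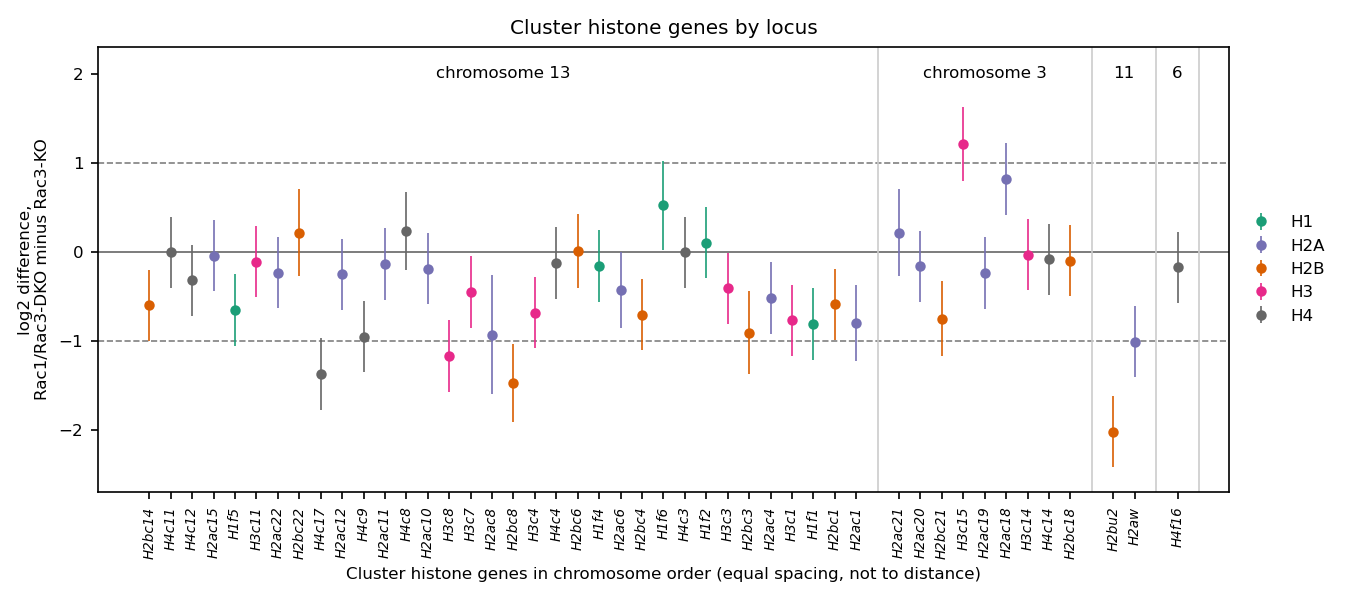
Log2 difference (DKO minus Rac3-KO, vertical axis) of each measured cluster gene in the order of its locus along chromosomes 13, 3, 11 and 6, with equal spacing. Colours mark core types, bars are 1.96 scanner signal errors and dashed lines mark 2-fold; both chromosome 11 genes lie at or below -1, and H3c15 and H2ac18 on chromosome 3 stand above their neighbours.

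The chromosome 11 pair held the largest difference among the histone genes measured on both arrays. H2bu2 (older symbol Hist3h2ba), an H2B gene, had a signal of 771 on the DKO array and 6239 on the Rac3-KO array. Its levels were 1.12 and 3.15, or 4.07-fold lower on the DKO array (difference -2.02, signal error 0.20). H2aw (older symbol Hist3h2a), an H2A gene, had levels of 1.84 on the DKO array and 2.85 on the Rac3-KO array, 2.02-fold lower. Its difference of -1.01 lies at the threshold and was -0.99 with normexp.

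On chromosome 3 the few higher genes stood beside near-copies that were not higher. H3c15 had a signal of 239 on the DKO array and 205 on the Rac3-KO array, levels of -0.57 and -1.78, and was 2.32-fold higher. Its counterpart H3c14, with levels of 2.49 on the DKO array and 2.52 on the Rac3-KO array, differed by -0.04. H2ac18 had levels of 3.37 on the DKO array and 2.55 on the Rac3-KO array, a difference of 0.82 (signal error 0.20). H2ac19 was far brighter, with levels of 7.69 and 7.93 on the DKO and Rac3-KO arrays, and differed by -0.24. Both comparisons are thus between probes of unlike level, and which copies each probe reads was not tested. The promoter windows of H2ac18 and H2ac19 share an identical run of 219 bases, although the 2 genes gave different readings.

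H2A and H2B genes often lie head to head around one short upstream region. In the pair H2ac8 and H2bc8 on chromosome 13, with 179 bases between the starts, both genes were lower, by -0.93 and -1.47. H2ac8 was dim, with a DKO signal of 24.7 where the lowest signal well above background was 20.1. Its signal error of 0.34 was the highest of the measured histone genes. With normexp H2bc8 gave -0.81. The testis-type pair H2ac1 and H2bc1 gave -0.80 and -0.59. In the pair H2ac22 and H2bc22 the values were -0.24 and 0.21, both within 1.96 signal errors. The members thus had the same sign in 2 of the 3 measured pairs whose strands were given as head to head. With 82.1% of measured histone genes below 0, a shared sign is frequent between any of them. The count is therefore no result about such pairs. Adjacent genes for which the strand of 1 was not taken from the promoter table were H2ac6 and H2bc4, at -0.43 and -0.71, and H2ac20 and H2bc21, at -0.17 and -0.75.

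Upstream sequences are printed for H2bc8, as a region shared by a head-to-head pair, for the chromosome 11 pair H2bu2 and H2aw, for H3f3b and H1f0 as the variants past the threshold, and for H2ac18, whose near-copy gave another reading. They are examples and not a ranking by difference. They are from the RefSeq promoter table of GRCm38.p6, end at the base before the annotated start and run 5′ to 3′ on the strand of the gene. Capitals mark, on either strand, the TATA motif TATAAA, the CCAAT motif, the octamer ATTTGCAT of H2B promoters and the H1 motif AAACACA. For H2bc8 the piece is the whole stretch between its start and that of H2ac8. H3f3b is annotated from 116021961 to 116026039 on the minus strand. Its piece lies inside that span, before the start in the promoter table, and not upstream of the whole gene.
H2bc8, chr13:23571221-23571399, + strand: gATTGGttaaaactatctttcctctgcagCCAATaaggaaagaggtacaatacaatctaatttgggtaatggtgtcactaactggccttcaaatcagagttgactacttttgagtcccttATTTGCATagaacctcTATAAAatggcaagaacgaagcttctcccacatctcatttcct
H2bu2, chr11:58948761-58948910, + strand: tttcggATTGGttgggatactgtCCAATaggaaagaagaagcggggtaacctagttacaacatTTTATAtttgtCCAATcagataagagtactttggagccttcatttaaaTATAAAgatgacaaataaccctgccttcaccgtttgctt
H2aw, chr11:58954535-58954684, + strand: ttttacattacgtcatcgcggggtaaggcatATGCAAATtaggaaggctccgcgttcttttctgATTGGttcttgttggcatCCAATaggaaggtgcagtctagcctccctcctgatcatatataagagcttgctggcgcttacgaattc
H2ac18, chr3:96245347-96245496, + strand: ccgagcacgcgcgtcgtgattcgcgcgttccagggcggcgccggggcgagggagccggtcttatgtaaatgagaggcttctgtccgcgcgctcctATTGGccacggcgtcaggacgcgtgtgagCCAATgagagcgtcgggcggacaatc
H3f3b, chr11:116024505-116024654, - strand: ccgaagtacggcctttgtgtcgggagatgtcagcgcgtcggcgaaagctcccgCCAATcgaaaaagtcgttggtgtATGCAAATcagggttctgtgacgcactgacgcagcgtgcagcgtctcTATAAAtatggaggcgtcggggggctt
H1f0, chr15:79028062-79028211, + strand: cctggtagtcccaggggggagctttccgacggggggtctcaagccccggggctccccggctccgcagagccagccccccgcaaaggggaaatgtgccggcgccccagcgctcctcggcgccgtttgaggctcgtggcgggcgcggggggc

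The region between H2ac8 and H2bc8 holds all of CCAAT, the octamer and TATAAA, and the stretch before H1f0 holds none of the 4 motifs. Windows from 250 bases before to 50 after the start were found for 96 of the 110 histone genes and searched on both strands, H2bc6 having 2 windows. CCAAT was present in every window of cluster H1, H2A, H2B and H3 genes and in 3 of 12 H4 windows, against 37.4% of all 32851 windows in the table. TATAAA was in 35 of 62 cluster windows and 4 of 35 variant windows, against 13.6% of all windows. The octamer was in 7 of 18 H2A and 7 of 16 H2B cluster windows, against 1.74% of all, and AAACACA in 5 of 6 cluster H1 windows, against 7.18% of all.

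Among measured H2A and H2B cluster genes, those with the octamer had a median difference of -0.60 over 12 genes, ranging from -1.47 to -0.10. Those without it had a median of -0.09 over 10 genes and ranged from -2.02 to 0.82, so the groups overlapped. Most of the H2A genes with signals over 100000 were among those without it, and head-to-head partners share their motifs, so the points are not independent. A match is a stretch of letters and not a measured binding site.

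Genes for the maturation of histone mRNA were measured beside the histone genes. The processing list had 21 measured members and a median difference of -0.44. By 2-fold or more, 3 members were lower and 0 higher, against 6.62% and 7.71% of all genes. Slbp, the stem-loop binding protein, had a level of -0.65 on the DKO array and 0.60 on the Rac3-KO array, 2.38-fold lower (signal error 0.21). Zfp473, a partner of the U7 particle that cuts histone mRNA, was 2.41-fold lower and Srrt, a cap-binding factor, 2.35-fold lower. Cstf2t and Tut7 differed by 0.17 and 0.16. Npat, the coactivator of the cluster genes, was not well above background on either array.

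Histone chaperone and deposition genes had a median of -0.37 over 31 measured members. The 2-fold threshold was passed downwards by 3 and upwards by 0, where 6.62% of all genes were lower and 7.71% higher, so the share of lower genes was near the background. Nasp, a chaperone of soluble histones, had levels of 2.66 on the DKO array and 4.04 on the Rac3-KO array, 2.60-fold lower. Mcm2, a helicase subunit that also binds histones, was 2.46-fold lower and Hat1, which acetylates new H4, 2.02-fold lower. Ipo4, an importer of H3 and H4, and Cabin1, of the complex that deposits H3 outside S phase, differed by 0.35 and 0.33. S phase genes lay lower than histone genes, with a median of -0.85. All 29 measured members were below 0, against 50.6% of all genes, and 8 were at least 2-fold lower, against 6.62%. Pola1, a DNA polymerase subunit, was 2.69-fold lower and the helicase gene Mcm3 2.49-fold lower, whereas the regulators E2f1 and E2f2 were nearest to 0 at -0.22 and -0.24. The median of the 46 cluster histone genes, -0.25, lay nearer to 0 than the S phase median; the difference between the lists was not tested.

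**Figure D5:**
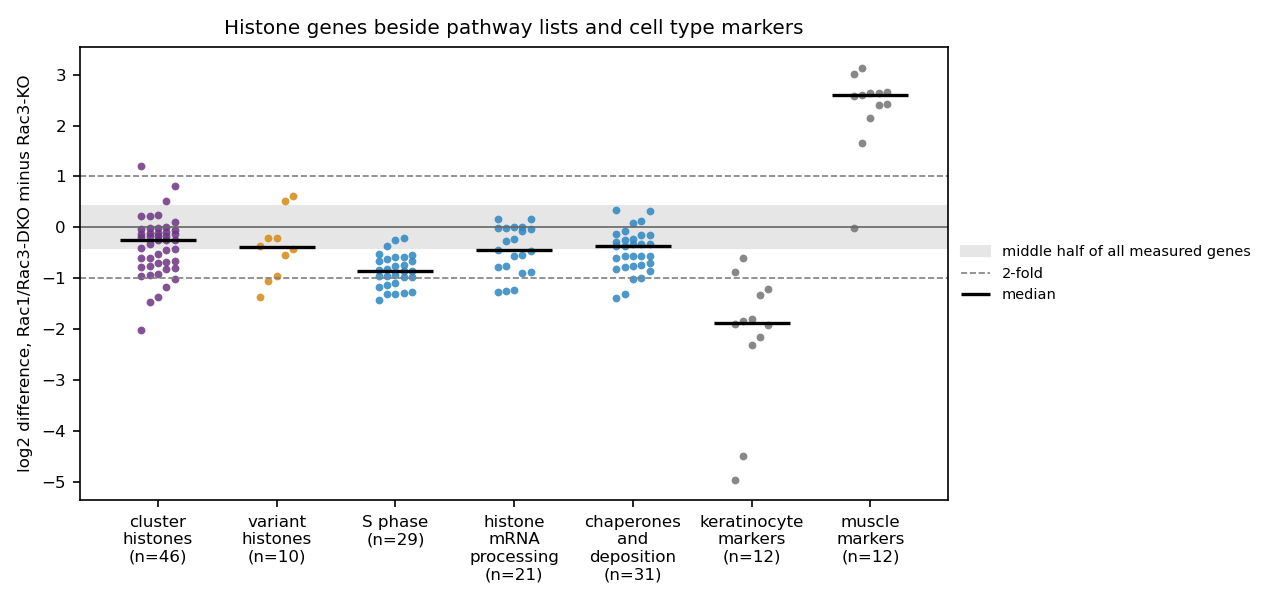
Log2 difference (DKO minus Rac3-KO, vertical axis) of each measured gene of the cluster and variant histones, the 3 pathway lists, and the keratinocyte and muscle marker lists. Black bars are medians, the grey band holds the range between the quartiles of all measured genes and dashed lines mark 2-fold; the cluster histone median of -0.25 lies above the S phase median of -0.85, and all 12 keratinocyte markers lie below 0.

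Markers of cell types differed between the samples beside these results. All 12 keratinocyte markers were lower, 10 of them at least 2-fold, against 6.62% of all genes, with a median of -1.87. Their summed linear level in units of each array's 75th percentile was 305 on the DKO array and 1049 on the Rac3-KO array. Among the 12 muscle markers, 11 exceeded 2-fold upwards, against 7.71% of all genes. Their median was 2.60 and their summed levels were 2515 and 458 on the DKO and Rac3-KO arrays. Fibroblast and leukocyte markers had medians of 0.79 and 0.99, endothelial, erythroid and adipocyte markers 0.60, 0.78 and 0.57, and melanocyte markers -0.99. Of the keratinocyte markers, Krt5, Krt14 and Trp63 had levels of 7.08, 4.34 and 2.72 on the DKO array. On the Rac3-KO array these were 8.28, 6.27 and 4.52. Krt1 and Krt10 differed most, at 31.0-fold and 22.6-fold lower on the DKO array. All 5 were well above background on both arrays. Fibroblast markers had summed levels of 2796 on the DKO array and 1589 on the Rac3-KO array, and erythroid markers 1882 and 1076. Both sums were above the keratinocyte sum on each array. Fewer dividing cells, fewer keratinocytes and less RNA for each cell cannot be told apart in such samples, and the part of cell type makeup in the histone differences was not tested.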

How the data were processed

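Total RNA was labelled with Cy3 and hybridised to 1-colour Agilent arrays, 1 for each genotype, per the labels. Per the file headers, Feature Extraction 10.10.1.1 made the deposited intensity values of each spot, whereas version 9.1 stands in the submitters' processing notes. A second deposited table holds log2 values. These match the log2 processed signal less one constant for each array, near the 75th percentile, for 100% of 55246 probes spotted once (tolerance 0.001), with column medians of -3.62 for DKO and -3.72 for Rac3-KO.

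Control spots and outlier spots (190 on the DKO array, 155 on the Rac3-KO array) were left out, and log2 signals were averaged by probe, which left 55678 probes. Each array's 75th percentile was subtracted. RefSeq accessions without versions gave 26580 probes the name of 1 of 20144 genes in the GRCm38.p6 table, used for names and promoter sequence, since the array design cites an earlier build. A gene was represented by its brightest probe and measured when that probe was flagged well above background on both arrays. On the DKO array 29433 probes (52.9%) were well above background, with a lowest such signal of 20.1, and on the Rac3-KO array 31703 (56.9%) and 23.4. Repeated spots (379 probes with at least 8) had a median SD of 0.11 for the log2 difference; each of the 83 histone probes was spotted once. Between probes of a gene the root mean square SD was 0.38.

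With 1 array per genotype there was no test, and genes past 2-fold were counted. The number of arrays limits the precision. Members and lists were chosen with earlier results of these data known. Named genes were all measured variants, the 3 brightest cluster genes of each core type, the 5 with the largest difference each way, genes on 1 array only and genes with probes at least 1 apart; other members were named to complete a small count, a pair or a locus, after their values were seen. Background correction, scaling, filters, the probe rule, thresholds and member sets were varied with limma 3.58.1 and statsmodels 0.14.6, and the calculation was tested on simulated data.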

Additional observations from a re-analysis of the deposited data

How the results depend on the processing

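No paired analysis was possible because each genotype had 1 array, and no replicate could be left out. The lower direction of the family held under each of the background corrections and scalings: 45 to 47 of the 56 measured histone genes lay below 0. Of all measured genes, the share below 0 ran from 49.85% with normexp to 56.71% with median scaling. The count at least 2-fold lower was 11 with median scaling, which moved the median of all genes to -0.10 and called 8.14% of all genes lower, and which put H2ac8, H2ax, H2bc3 and H4c9 past the threshold. Higher genes were 43.6% of all genes at least 2-fold apart under it, against 53.8% in the main setting. With quantile and loess normalization the count was 9, and 7 of the main 7 genes were kept under each scaling; normexp kept 5 and added H2ax and H4c9. At a 1.5-fold threshold 20 histone genes were lower and 3 higher (16.5% and 18.3% of all genes), and at 3-fold 1 was lower and 0 higher (2.23% and 2.29%). With no filter on detection the median of all genes was 0.14, 4 of 71 histone genes were at least 2-fold higher, against 10.5% of all genes, and the variant median became 0.58 over 23 genes, so that the cluster median minus the variant median was -0.82 in place of 0.14. The 13 added variants had failed the detection filter of the main setting, 12 of them on both arrays. Their values are therefore not a measured rise on the DKO array, and the cause of the shift was not tested. Of 360 recomputed differences of named genes, 353 stayed within 1 signal error, 7 moved further and 0 changed sign after a 2-fold call. With the mean over probes H4c9, whose 2 probes disagree in sign, gave -0.04. H4c14, whose second probe is dim, gave -0.46 in that setting, and with normexp H2ac11 gave -0.41. Members by a gene name column were not run, since the scanner files have none. Signals under about 20 on the DKO array could not be told from background.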
